A study of Mus musculus with 4 samples.

Results

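The TRIM genes are a family of ubiquitin ligase genes, taken here as all RefSeq protein-coding genes whose symbol is Trim followed by a number and at most 1 letter. There were 68 of them among 21887 protein-coding nuclear genes. Each was described by the peaks whose midpoint lay in the gene body or up to 20 kb on either side, called its window here. The peaks came from streptavidin pull-downs of PLZF-bound DNA in mouse thymocytes of C57BL/6 background. PLZF is a zinc finger transcription factor with a BTB domain, encoded by Zbtb16, that directs the development of innate-like T cells. One pull-down came from PLZF tg/BirA tg mice, which carry transgenes for PLZF and for BirA, a biotin ligase, and is called the Tg_thy list after its label. The other came from PLZF tg/BirA tg/Valpha14 tg mice and is called the NKT list. Both groups are labelled thymocytes, and Valpha14 names the T cell receptor alpha chain that marks invariant NKT cells. The sources used here do not give the promoters that drive the transgenes, the ages of the mice or any sorting or pooling. The lists hold no expression values against which the cell type could be checked.

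Each group had 1 ChIP library, so no difference between the lists has a replicate check and no p-value was computed. The Tg_thy list held 5198 peaks and the NKT list 4246. The value deposited with each peak, called its score, has no stated scale. Scores ran from 50.03 to 3133 with a median of 110.8 in the first list and from 50.02 to 3104 with a median of 73.8 in the second. They rank peaks within a list, and read depth is unknown for both, so scores of the 2 lists are set side by side without a claim of change. No streptavidin control lacking the PLZF transgene entered the counts, so a peak marks streptavidin enrichment and need not be a PLZF site.

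TRIM proteins carry a RING domain, which recruits the ubiquitin-conjugating enzyme, then B-boxes and a coiled coil, and a C-terminal part that picks the substrate and sorts the family into classes. Members act in antiviral and inflammatory signalling, in transcription and chromatin, on microtubules and in muscle. A few lack the RING. TRIM28 (KAP1) is the corepressor of KRAB zinc finger proteins, TRIM24 is a coregulator of nuclear receptors, and TRIM33 acts on SMAD4 in TGF-beta signalling. In T cells, TRIM27 restrains the activation of CD4 cells, and TRIM28 is needed for their normal development and tolerance.

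No peak of either list lay over a tabulated TRIM promoter. The tabulated promoters that peaks did cover in TRIM windows belonged to neighbouring genes. An NKT peak did span the upstream end of Trim46, 0.48 kb from the nearest tabulated Trim46 start. The RefSeq promoter table (build GRCm38.p6, 250 bases before to 50 after each start) held 67 promoters of 53 of the 68 TRIM genes. Trim33, Trim8, Trim17 and Trim55 are among the genes it does not list, so a peak over a start of these genes would not be counted. Of the 67, 0 overlapped a peak in either list. Taking 3 counts of 67 as an approximate upper limit, this allows a share of up to 4.48% (counting error only). Over the whole table, 766 of 32851 promoters (2.33%) overlapped a Tg_thy peak and 558 (1.70%) an NKT peak. These shares are under the limit for the TRIM promoters, so a lower share at TRIM promoters was not detectable.

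The sequences below show what the peaks covered, read 5′ to 3′ on the strand of the named gene, with the bases under a peak of either list in capitals. The Zbtb45 promoter (chr7:13009803-13010102, minus strand) lies in the window of Trim28, whose own promoter (chr7:13023902-13024201, plus strand) had no base under a peak. The Ska2 promoter (chr11:87109011-87109310, plus strand) lies in the window of Trim37. The Pycard promoter (chr7:127993818-127994117, minus strand) lies in the window of Trim72. The H2aw promoter (chr11:58954435-58954734, plus strand) overlaps the lower-coordinate end of Trim17. The Krtcap2 promoter (chr3:89246188-89246487, plus strand, the first of 2 tabulated starts) overlaps the upper-coordinate end of Trim46.
Zbtb45: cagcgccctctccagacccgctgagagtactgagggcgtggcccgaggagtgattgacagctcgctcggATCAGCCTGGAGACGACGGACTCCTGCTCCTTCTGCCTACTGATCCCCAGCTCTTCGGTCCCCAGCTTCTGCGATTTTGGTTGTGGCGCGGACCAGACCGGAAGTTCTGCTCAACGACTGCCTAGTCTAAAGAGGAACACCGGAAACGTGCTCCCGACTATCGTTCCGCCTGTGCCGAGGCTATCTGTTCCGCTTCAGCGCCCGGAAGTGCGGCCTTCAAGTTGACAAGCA
Trim28: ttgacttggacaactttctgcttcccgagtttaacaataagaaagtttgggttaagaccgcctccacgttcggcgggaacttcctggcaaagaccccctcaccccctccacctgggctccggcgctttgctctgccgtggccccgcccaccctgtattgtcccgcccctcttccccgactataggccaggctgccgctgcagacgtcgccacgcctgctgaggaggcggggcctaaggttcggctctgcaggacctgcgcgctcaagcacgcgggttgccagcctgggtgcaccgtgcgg
Ska2: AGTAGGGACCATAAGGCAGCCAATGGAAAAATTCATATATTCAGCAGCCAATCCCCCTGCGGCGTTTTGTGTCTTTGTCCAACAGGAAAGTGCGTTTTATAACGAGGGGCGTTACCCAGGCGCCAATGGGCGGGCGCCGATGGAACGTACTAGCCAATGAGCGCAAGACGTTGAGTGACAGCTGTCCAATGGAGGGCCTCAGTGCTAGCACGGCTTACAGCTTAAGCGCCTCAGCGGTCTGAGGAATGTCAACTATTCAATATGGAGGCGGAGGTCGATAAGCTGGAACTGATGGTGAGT
Pycard: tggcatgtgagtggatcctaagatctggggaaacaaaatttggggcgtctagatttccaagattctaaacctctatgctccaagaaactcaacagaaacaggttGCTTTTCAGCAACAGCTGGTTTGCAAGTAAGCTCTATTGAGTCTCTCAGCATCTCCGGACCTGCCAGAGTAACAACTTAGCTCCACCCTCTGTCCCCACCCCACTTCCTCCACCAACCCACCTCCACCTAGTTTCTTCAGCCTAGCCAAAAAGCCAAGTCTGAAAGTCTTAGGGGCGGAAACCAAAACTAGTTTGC
H2aw: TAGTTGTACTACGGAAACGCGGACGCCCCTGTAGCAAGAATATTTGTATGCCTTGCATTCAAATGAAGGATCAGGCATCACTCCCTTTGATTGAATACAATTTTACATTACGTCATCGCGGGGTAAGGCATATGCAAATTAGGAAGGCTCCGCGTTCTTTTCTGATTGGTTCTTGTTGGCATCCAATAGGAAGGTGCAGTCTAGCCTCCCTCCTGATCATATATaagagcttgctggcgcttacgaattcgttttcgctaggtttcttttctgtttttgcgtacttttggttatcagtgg
Krtcap2: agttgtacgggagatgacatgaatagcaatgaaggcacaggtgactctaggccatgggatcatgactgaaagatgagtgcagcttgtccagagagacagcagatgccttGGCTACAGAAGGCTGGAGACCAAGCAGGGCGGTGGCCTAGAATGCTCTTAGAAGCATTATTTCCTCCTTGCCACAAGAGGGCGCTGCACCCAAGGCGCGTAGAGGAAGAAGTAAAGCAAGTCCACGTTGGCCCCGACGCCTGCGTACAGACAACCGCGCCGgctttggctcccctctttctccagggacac

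The Zbtb45 promoter was covered in both lists, over 231 bases in the Tg_thy and 120 in the NKT list. Zbtb45 encodes a BTB zinc finger protein of the same family as PLZF. It held CCGGAAG, the core of ETS factor sites, at 2 places, both under the Tg_thy peak. The Trim28 promoter, with nearly as many CpG dinucleotides (23 against 24), held none. The other promoters shown held no CCGGAAG either. CCGGAAG on either strand was present in 8.86% of all tabulated promoters, in 24.7% of those under a Tg_thy peak, in 28.1% of those under an NKT peak and in 5 of 67 TRIM promoters (7.46%). Promoters under peaks also had more CpG, with medians of 16 and 18 against 7 over all promoters and 8 over TRIM promoters, and the part of CpG content in this difference was not tested. The RUNX core TGTGGT was in 22.4% of TRIM and 16.8% of all promoters, the E-box CAGCTG in 32.8% and 16.3%, and the GC box GGGCGG in 38.8% and 35.7%, each counted on either strand. The 67 TRIM promoters include alternative starts of the same gene, so these shares are over promoters and not genes. Such matches describe letters, not binding.

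A peak lay in the window of 22 of the 68 TRIM genes in the Tg_thy list, 32.4%, where 19.8% of all protein-coding genes had one. In the NKT list it was 15 of 68, 22.1%, where 16.9% of all genes had one. Both lists had a peak at 14 TRIM genes (20.6%), beside 12.4% of all genes. The Tg_thy list alone had 8 (11.8%, all genes 7.49%), namely Trim6, Trim11, Trim14, Trim17, Trim26, Trim59, Trim69 and Trim71. The NKT list alone had 1, Trim46 (1.47%, all genes 4.52%). The other 45 TRIM genes had no peak in either (66.2%, all genes 75.6%).

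The size of the margin over all genes varied with the window and was larger on chromosome 11 than on the others. In the Tg_thy list the TRIM share stayed above that of all genes at every setting given here. With gene bodies alone, 10 TRIM genes had a Tg_thy peak (14.7%, all genes 8.37%) and 4 had an NKT peak (5.88%, all genes 7.18%), so the NKT share was then below that of all genes. With only the top 50% of each list by score, 15 and 11 TRIM genes had a peak (22.1% and 16.2%, all genes 11.2% and 9.48%). On chromosome 11, 7 of 11 TRIM genes had a Tg_thy and 5 an NKT peak (63.6% and 45.5%), where 28.8% and 23.2% of all genes on that chromosome had one. On the other chromosomes it was 15 and 10 of 57 (26.3% and 17.5%), beside 19.1% and 16.4% of all genes there. The median gene length was 15.9 kb for TRIM and 17.2 kb for all genes. In each of 3 length classes the TRIM share was above that of all genes in both lists, for example 14 of 40 genes of 10 to 50 kb (35.0%, all genes 21.6%) in the Tg_thy list. In that class the NKT count was 9 of 40 (22.5%, all genes 17.6%). The RNF genes, another family named for its RING domain, had a peak at 21 and 18 of 80 (26.3% and 22.5%). Their median length was 26.3 kb, above that of TRIM genes, and their NKT share was close to the TRIM share of 22.1%.

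**Figure D1:**
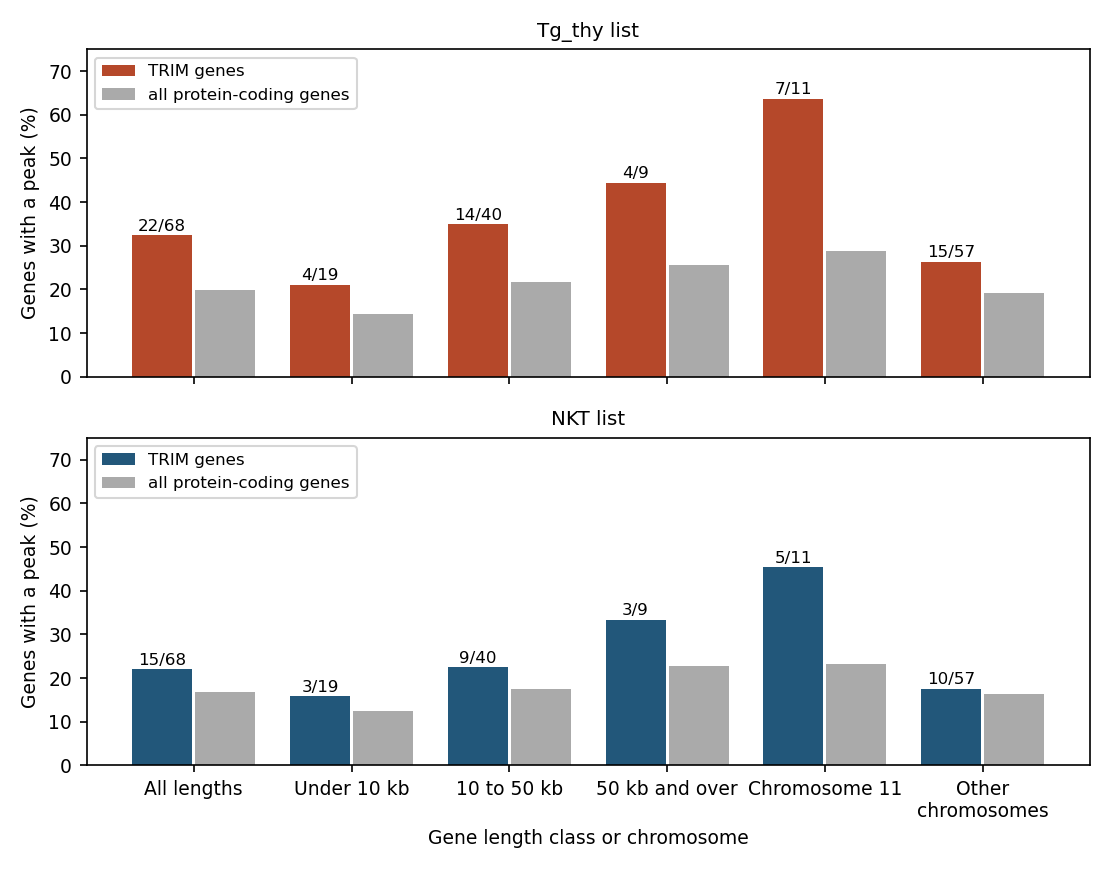
Percentage of genes (vertical axis) with at least 1 peak in the gene body or 20 kb on either side, for TRIM genes (coloured, with counts) and all protein-coding genes (grey), by gene length class and by chromosome, in the Tg_thy (top) and NKT (bottom) list. The TRIM bars are highest on chromosome 11, at 7 of 11 and 5 of 11 genes, and nearest to the grey bars on the other chromosomes in the NKT list, at 17.5% beside 16.4%.

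TRIM windows held 40 distinct Tg_thy and 22 distinct NKT peaks, of which 17 and 9 lay on chromosome 11. Some windows overlap, and 3 Tg_thy peaks and 1 NKT peak lay in the windows of 2 TRIM genes. Per megabase of window this was 10.2 and 5.59 peaks, beside 2.93 and 2.34 over the windows of all protein-coding genes. Long genes lower the value for all genes, and over genes under 50 kb it was 12.1 and 6.05 for TRIM and 4.08 and 3.33 for all genes. On chromosome 11 it was 27.7 and 14.6 for TRIM and 5.84 and 4.83 for all genes. On the other chromosomes it was 6.93 and 3.92 for TRIM and 2.76 and 2.20 for all genes. Scores were ordinary for their lists, with medians of 90.4 in the Tg_thy list (all peaks 110.8) and 75.2 in the NKT list (all peaks 73.8). Of the 22 NKT peaks, 19 overlapped a Tg_thy peak, 86.4% (exact 95% interval 65.1 to 97.1%), and over the whole NKT list 60.7% did. Of the 40 Tg_thy peaks, 16 overlapped an NKT peak, 40.0% (24.9 to 56.7%), and over the whole list 45.7% did. The intervals cover counting error only. When an overlap of at least 50% of each peak was asked for, 45.5% of the NKT peaks in TRIM windows were shared, beside 36.5% of the whole NKT list, and 25.0% of the Tg_thy peaks, beside 29.8% of the whole Tg_thy list. Several NKT peaks can overlap 1 Tg_thy peak, as at Trim24 and Trim33.

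**Figure D2:**
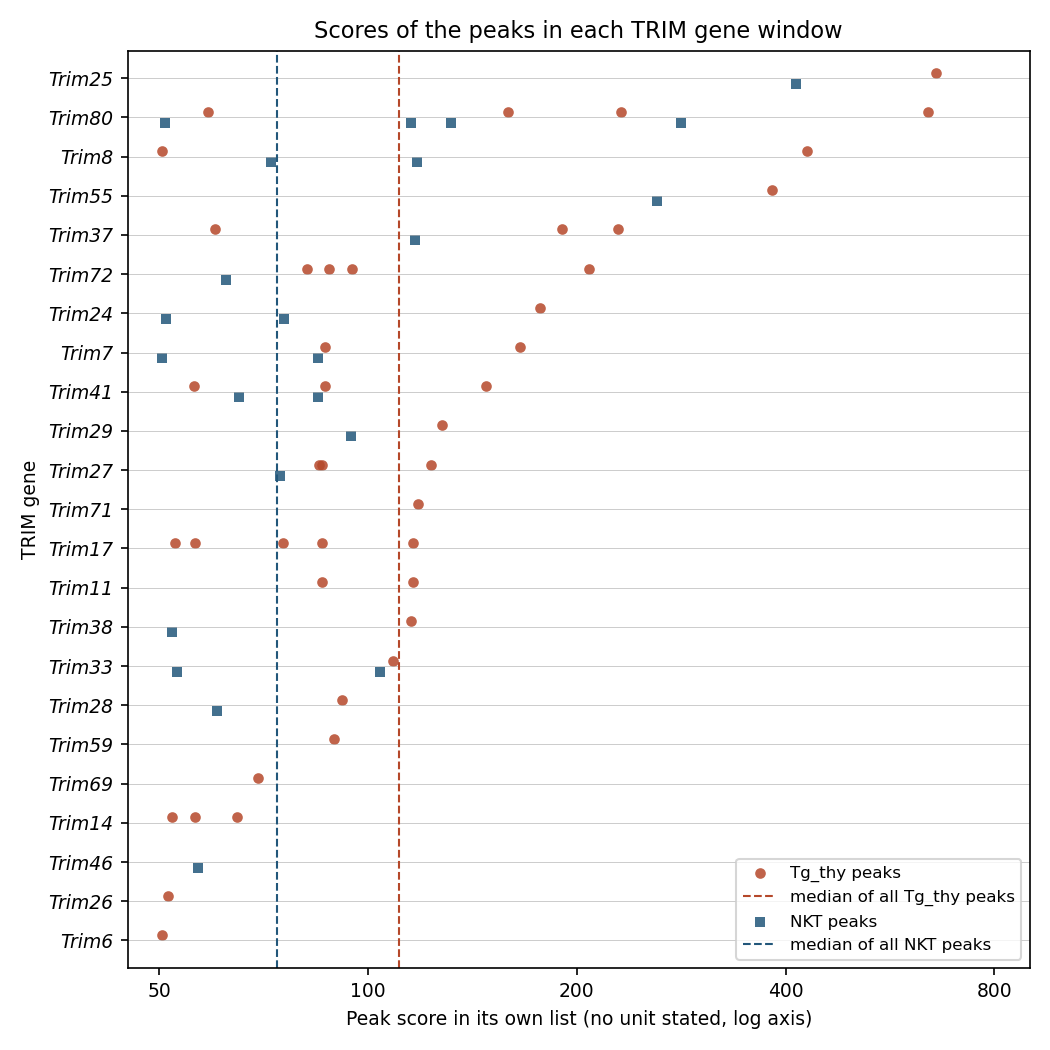
Score of every peak (horizontal axis, log scale, no unit stated) in the window of each of the 23 TRIM genes with a peak (rows), with circles for the Tg_thy and squares for the NKT list. Dashed lines mark the medians of all peaks, 110.8 and 73.8. Trim25 and Trim80 hold the highest scores in both lists.

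Many of these peaks lay nearer to a gene of another family, as was also so in the windows of RNF genes. Of the 40 Tg_thy peaks, 12 lay inside a TRIM gene and 24 had a TRIM gene as their nearest protein-coding gene. For the other 16 a gene of another family was nearest. Of the 22 NKT peaks, 6 lay inside a TRIM gene, 16 had a TRIM gene nearest and 6 another gene. Of the 23 TRIM genes with a peak, 19 were the nearest gene of at least 1 of them, and Trim6, Trim28, Trim41 and Trim46 of none. In RNF windows a gene outside that family was nearest for 19 of 36 Tg_thy and 18 of 36 NKT peaks. Over a promoter of another gene lay 7 Tg_thy and 3 NKT peaks in TRIM windows (17.5% and 13.6%). Over the windows of all protein-coding genes, 14.1% and 13.1% of peaks lay over a tabulated promoter, so these shares are near the background.

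**Figure D3:**
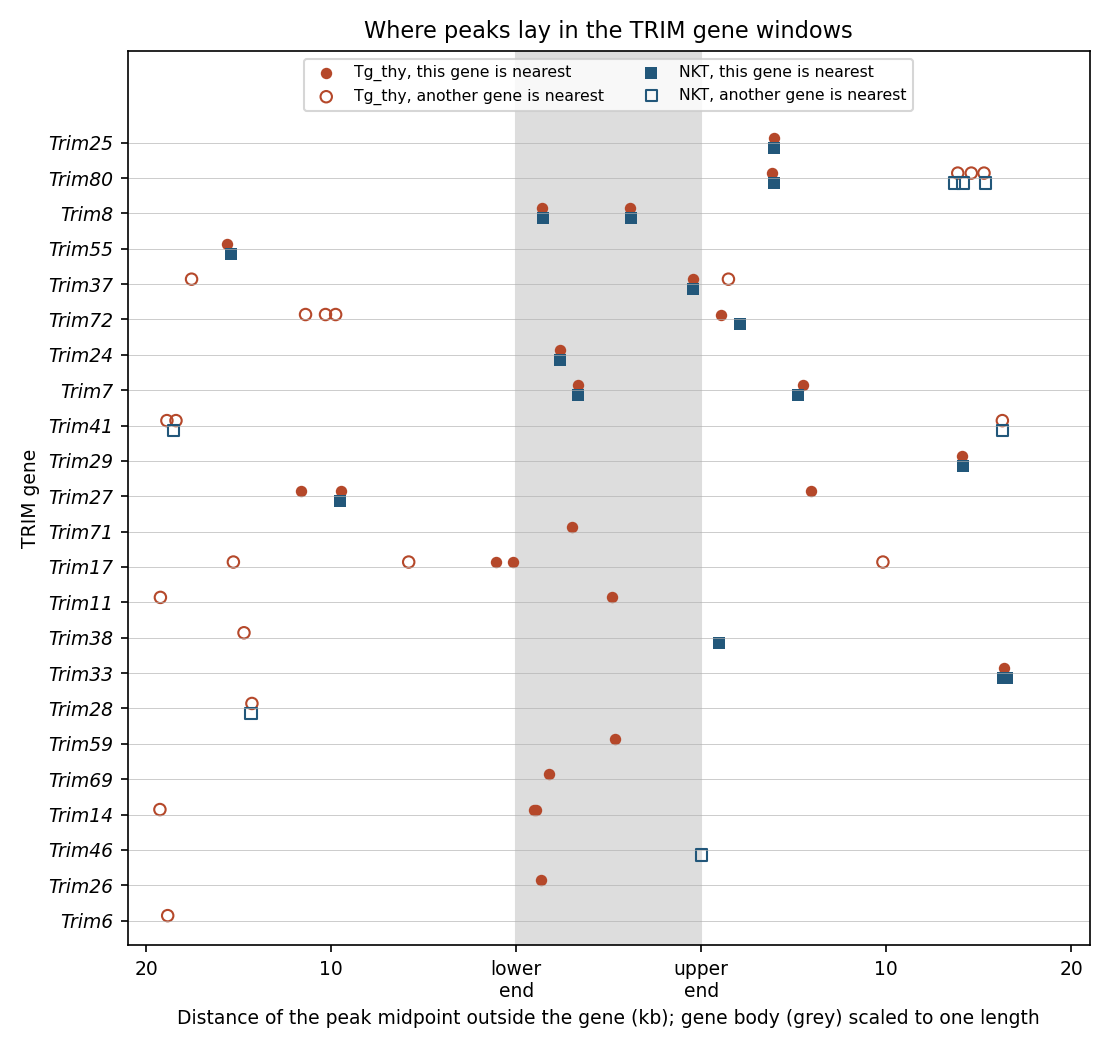
Distance of each peak midpoint outside the gene in kb (horizontal axis), with the gene body scaled to 1 length (grey), for the 23 TRIM genes with a peak (rows). Circles are Tg_thy and squares NKT peaks, filled where that gene is the nearest protein-coding gene and open where another gene is. The peaks of Trim28, Trim41, Trim46 and Trim6 are all open.

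Among the TIF1 genes, whose proteins carry a PHD finger and a bromodomain that read histone tails, 3 of 4 had a peak in both lists, beside 12.4% of all genes. The 4 genes have a median length of 73.6 kb. Among all genes of 50 kb and over 25.6% had a Tg_thy peak, 22.9% an NKT peak and 17.2% a peak in both lists. Trim28 is shorter, at 6.88 kb, and among all genes under 10 kb 8.82% had a peak in both. The 3 genes with a peak were Trim24, Trim28 and Trim33, and Trim66 had none. Trim24 (chr6:37870811-37968445) had a Tg_thy peak of score 177 inside the gene (chr6:37893558-37894052), 6.68 kb from its nearest tabulated start. In the NKT list 2 peaks of scores 75.7 and 51.1 overlapped it. Trim28 (chr7:13024152-13031032) had a peak of 91.6 in the Tg_thy list (chr7:13009697-13010033) and of 60.5 in the NKT list (chr7:13009731-13009922). Both lay on the Zbtb45 promoter printed above, 14.3 kb upstream of the Trim28 start and within 0.026 kb of the Zbtb45 start.

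Trim33 (chr3:103279293-103358770, 79.5 kb) is given apart, since a dense group of peaks has it as nearest gene but lies mostly outside its window. Inside the gene there were 0 peaks in either list. The window held 1 Tg_thy peak (108.5) and 2 NKT peaks (104.2 and 53.04), all about 16 kb beyond the upper end of the gene. Taking every peak up to 100 kb away with Trim33 as nearest protein-coding gene, an alternative chosen after seeing the data, gave 5 Tg_thy and 8 NKT peaks. They formed 5 sites between 16.4 and 38.95 kb beyond the upper end, and each site was in both lists. The strand of Trim33 is not in the tables used here, so upper end means the end at the higher coordinate.

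The strongest site, at 28.0 kb (chr3:103386267-103387292), scored 795 in the Tg_thy list, above 98.3% of that list, and 445 in the NKT list, above 97.7%. Both values exceeded every score in the TRIM windows, Trim25 included. The site beside it, at 26.5 kb (chr3:103384711-103385880), scored 409 in the Tg_thy list, and 2 NKT peaks of 165 and 77.2 overlapped it. At 38.95 kb (chr3:103397410-103398026) the Tg_thy score was 274 and the NKT scores were 70.04 and 50.5. At 24.6 kb (chr3:103383151-103383545), the first site outside the 20 kb limit, the scores were 94.5 and 62.7. At the site just inside it, at 16.4 kb, the Tg_thy score was 108.5 and the NKT scores were 104.2 and 53.04.

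The 8 NKT peaks came from the same 5 places as the 5 Tg_thy peaks, since at 3 sites 2 NKT peaks overlapped 1 Tg_thy peak. Covered length was 3558 bp in the Tg_thy and 2219 bp in the NKT list. Of all protein-coding genes, 100 had as many assigned peaks or more in the Tg_thy list (0.457%) and 8 in the NKT list (0.0366%), Trim33 included. Among TRIM genes the next highest count was 3, at Trim27, in the Tg_thy list, and 2, at Trim7, Trim8 and Trim24, in the NKT list. Trim33 was singled out for its many peaks, so these ranks are a description. The next protein-coding gene on that side, Syt6, begins 216.5 kb from the end of Trim33. The nearest gene of any kind to the 4 outer sites was Gm25009.

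**Figure D4:**
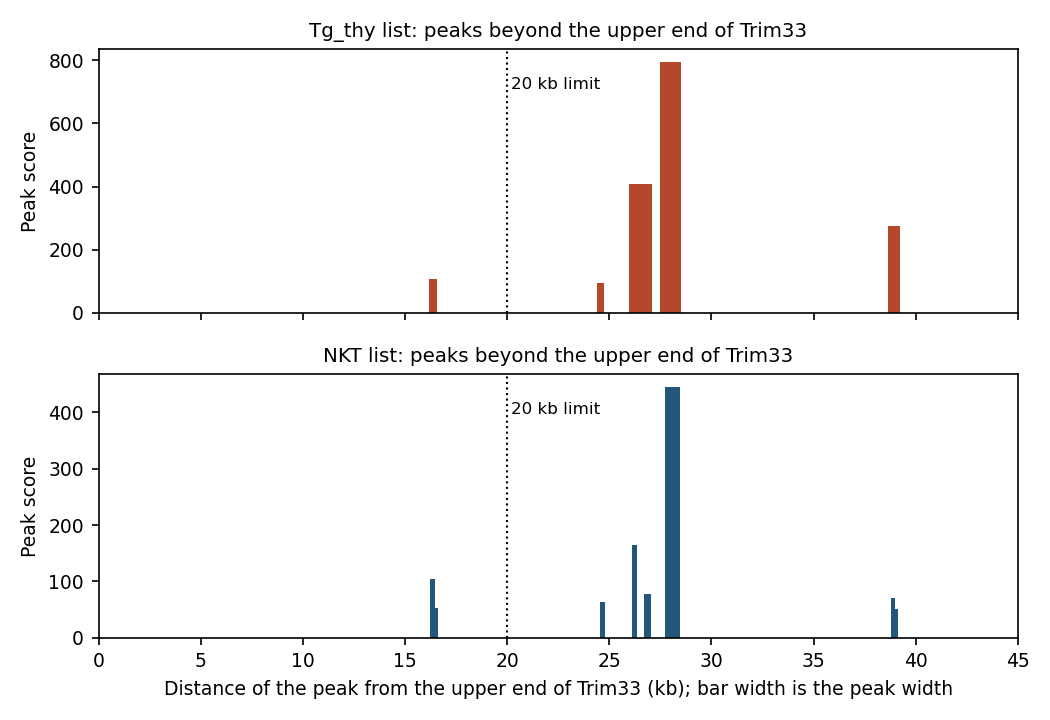
Peak score (vertical axis) against distance beyond the upper end of Trim33 in kb (horizontal axis), in the Tg_thy (top) and NKT (bottom) list, with each bar as wide as its peak. The bars stand at the same 5 places in both lists, and 1 Tg_thy and 2 NKT peaks lie within the dotted 20 kb limit.

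Of 18 antiviral and innate TRIM genes, 5 had a Tg_thy peak (27.8%) and 2 an NKT peak (11.1%), beside 19.8% and 16.9% of all genes. Trim25, which encodes the ligase that ubiquitinates the viral RNA sensor RIG-I, held the highest score of all TRIM windows in both lists. Its peak lay 3.95 kb beyond the end of the gene (chr11:89023908-89024588) and scored 659 in the Tg_thy list and 415 in the NKT list, above 97.1% and 97.3% of the peaks. Trim38, a regulator of innate signalling, had peaks in both lists at different places. The Tg_thy one (115) lay on the promoter of the histone gene H1f1, and the NKT one (52.05) lay 0.978 kb beyond the end of Trim38. The remaining 3 had Tg_thy peaks only, with scores of 50.35 to 64.7. Trim14, an adaptor of antiviral signalling, had 2 peaks inside the gene (52.2 and 56.3) and 1 (64.7) nearer to Nans. Trim26, in the major histocompatibility region, had 1 of 51.5 inside the gene, and Trim6, which acts in interferon signalling, 1 of 50.35 at 18.8 kb.

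The TRIM runs counted here held 0 or 1 peak in each list, over spans in which few would lie at the density of all gene windows. Neighbouring TRIM genes on chromosome 11, Trim41 with Trim7 and Trim17 with Trim11, were not among these runs. Their windows held several peaks, which are given below. The run of 10 genes from Trim6 to Trim30d on chromosome 7 (chr7:104218795-104507853, 289 kb), mostly antiviral genes, had 0 peaks within it in either list and the Trim6 peak of 50.35 beside it. At the density of all gene windows a span of this length would hold 0.848 Tg_thy and 0.677 NKT peaks. The run of 5 genes from Trim26 to Trim31 on chromosome 17 (chr17:36837123-36910217) had 1 peak within it, the Tg_thy peak at Trim26, and 0 NKT peaks, where that density gives 0.214 and 0.171. The 3 Trim43 genes on chromosome 9 and the run of 3 genes from Trim75 to Trim61 on chromosome 8 had 0 in either, where it gives 1.5 and 1.2 for the first and 0.109 and 0.087 for the second. These counts are near the background. Genes of such runs can be near-copies that share reads, and the sources used here do not say how the authors treated those reads, so the counts are uncertain.

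Of 30 TRIM genes outside the named classes, 10 had a Tg_thy and 7 an NKT peak (33.3% and 23.3%, all genes 19.8% and 16.9%). Trim8, which encodes a ligase acting in NF-kB and cytokine signalling, had 2 sites inside the gene in both lists. The stronger (chr19:46510605-46511406) scored 429.7 (Tg_thy) and 118 (NKT). The weaker (chr19:46503645-46503843) scored 50.45 and 72.5, so the same site was the stronger in both lists. Trim80 had a site 3.80 kb beyond its end (chr11:115451703-115452438) with scores of 642 and 282. A further 3 peaks in each list, with scores of up to 231 and 132, lay in its window but at or inside Slc16a5, a monocarboxylate transporter gene. Trim27, a ligase that restrains CD4 T cell activation, had 3 Tg_thy peaks, of 85.8, 84.8 and 123, and was the nearest protein-coding gene of all 3. The NKT list had 1 there (74.7), which overlapped the one of 84.8 at 9.48 kb upstream. The nearest gene of any kind to the peak of 123 was n-TLcaa1, a tRNA gene by its symbol, and to the others Gm32298.

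Trim37, the only member with a MATH domain, had a peak in both lists near the end of the gene (chr11:87245246-87245694), with scores of 230 and 117. This place also lies inside Ppm1e, which overlaps Trim37. In the Tg_thy list alone, a peak of 191 (chr11:87108942-87109537) covered the whole Ska2 promoter shown above and 23 bases of that of Prr11, 17.6 kb from Trim37. Ska2 encodes a kinetochore protein. Another of 60.1 lay in Ppm1e. Trim7, which encodes a glycogenin-binding ligase, and its neighbour Trim41 shared a site inside Trim7 (chr11:48834340-48834610), with scores of 86.7 and 84.7. A second site of Trim7, 5.52 kb beyond its end, had 166 and 50.45. The nearest gene of any kind was n-TAtgc9 at the first site, and n-TVaac7 (Tg_thy) and n-TPtgg4 (NKT) at the second, tRNA genes by their symbols. The other Trim41 site common to both lists, with 148 and 65.2, lay nearer to Rack1. Trim29, a member without a RING that is expressed in epithelia, had 1 site 14.1 kb away in both lists, with 128 and 94.3.

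Of the 7 genes for microtubule-binding members, 1 had a Tg_thy and 2 an NKT peak (14.3% and 28.6%, all genes 19.8% and 16.9%). Trim55, which encodes the muscle ligase MuRF2, had a broad peak of 1191 bp (chr3:19628122-19629312) at 15.6 kb, scoring 383 and, in the NKT list, 261. These were above 91.5% and 92.5% of the lists, and Trim55 was the nearest protein-coding gene. The nearest gene of any kind was n-TYgta2 for the Tg_thy and n-TAagc14 for the NKT peak, both tRNA genes by their symbols. Trim46, which organises microtubules in axons, had 1 of 56.9 in the NKT list, on the Krtcap2 promoter. This peak also lay across the upper end of Trim46, its upstream end, and 0.48 kb from the nearest tabulated Trim46 start. Trim72 and the genes that follow belong to other classes. Trim72, which encodes the membrane repair protein MG53 of muscle, had 4 Tg_thy peaks. Of these, 3 (208, 94.8 and 81.7) lay in Pycard, which encodes the inflammasome adaptor ASC, and the NKT list had 0 there. The other (87.9) lay 1.09 kb beyond the end of Trim72 and did not overlap the NKT peak of 62.4 at 2.08 kb.

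The remaining members had Tg_thy peaks only. Trim17, which encodes a ligase of neuronal apoptosis, had 5 in its window, of 116, 85.9, 75.4, 56.3 and 52.6. The one of 116 (chr11:58954327-58954658) lay 0.178 kb from the end of Trim17 at the lower coordinate and covered 224 bases of the H2aw promoter printed above. The one of 52.6 lay on the promoter of another histone gene, H2bu2, and the one of 75.4 lay 0.476 kb from Rnf187. The one of 85.9 lay inside Trim11, which encodes a ligase of protein quality control and whose window also held the one of 116. Trim71, a regulator of stem cell and germ cell mRNAs, had 1 of 118 inside the gene. Of the 4 NHL repeat genes, 1 thus had a Tg_thy peak (25.0%, all genes 19.8%) and 0 an NKT peak (all genes 16.9%). Trim59, which encodes a membrane-anchored ligase, had 1 of 89.2 inside the gene, and Trim69, known from testis, 1 of 69.5 inside both Trim69 and Patl2.

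Genes that work with TRIM proteins differed among themselves. Of 13 TGF-beta and SMAD genes, the pathway of TRIM33, 8 had a Tg_thy peak (61.5%) and 5 an NKT peak (38.5%), all 5 in both. These genes are long, with a median of 61.7 kb, and among all genes of 50 kb and over the shares were 25.6% and 22.9%. Smad3, a signal transducer of the pathway, scored 549 and 522, Smad5 192 and 304, the receptor gene Tgfbr2 216 and 177, and Tgfbr1 187 and 114, with the Tg_thy value first. Ski (266), which encodes a SMAD corepressor, and Smad4 (191), which encodes the target of TRIM33, had peaks in the Tg_thy list alone. Of 6 chromatin partners of TRIM28, 4 had a Tg_thy peak (66.7%, all genes 19.8%) and 1 an NKT peak (16.7%, all genes 16.9%). Chd3 had 107 and 61.7, and the heterochromatin protein genes Cbx5 (85.3) and Cbx3 (60.9) were in the Tg_thy list alone.

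Of 12 ubiquitin-conjugating enzyme genes, 2 had a peak in each list (16.7%), close to the 19.8% and 16.9% of all genes. Ube2e2 was in both (266 and 191), Ube2v1 in the Tg_thy list alone (50.5) and Ube2e1 in the NKT list alone (88.3). Of 4 TRIM proteins with other symbols, Pml, which encodes the organiser of PML nuclear bodies, had a peak in the Tg_thy list alone (104). Mid1, a microtubule-binding member, had 2 in the NKT list alone, the higher of 224. Mid2 and Mefv had 0 in either.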

How the data were processed

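Streptavidin ChIP peaks were taken from 2 libraries of 4 samples; the 2 input samples were not analysed here. The authors deposited 1 peak list for each of these, which gives positions, a name beginning with MACS and a score of unstated scale. Bowtie, Picard, HOMER and the build mm10 are named, without roles, per the submitters' processing notes. The sources used here do not give versions, whether the input served as control, or any pooling. Depth is unknown.

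Starts were raised by 1 to be 1-based. Gene spans came from a RefSeq table of GRCm38.p6, the assembly mm10 names, without mitochondrial genes. All 68 members matched by symbol. Promoter sequences came from RefSeq with the same build. Peaks counted as shared at an overlap of 1 bp. Intervals are exact (Clopper-Pearson), and the upper limit for TRIM promoters is an approximation. Every TRIM gene with a peak is named, and of related lists up to 4 genes with a peak in both lists by NKT score and up to 2 in 1 list. No test was run, since each group had 1 library. Counting was checked on planted peaks. Members, gene lists and alternatives were chosen with earlier results of these data known. Python 3.11.15, pandas 2.3.3 and SciPy 1.17.1 were used.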

Additional observations from a re-analysis of the deposited data

How the results depend on the processing

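No paired analysis was possible because each group had 1 library. The counts followed the width of the window. With gene bodies alone, 10 TRIM genes had a Tg_thy and 4 an NKT peak, with 12 and 6 distinct peaks, 0 of them at Trim33, and 8.37% and 7.18% of all genes had one. With 5 kb on either side it was 14 and 9 TRIM genes, 18 and 11 peaks, 0 at Trim33, and 13.1% and 10.8% of all genes. With 50 kb it was 30 and 26 TRIM genes (44.1% and 38.2%), the distinct peaks were 66 and 51, Trim33 had 5 and 8, and 30.3% and 26.3% of all genes had one. With the top 50% of each list by score, 15 and 11 TRIM genes had a peak, distinct peaks fell to 17 and 12, Trim33 had 0 and 1, and 11.2% and 9.48% of all genes had one. With shared peaks only, 12 TRIM genes and 16 distinct peaks were left in the Tg_thy list. With peaks given only to their nearest protein-coding gene, 24 distinct Tg_thy peaks were left, and with a limit of 100 kb, chosen after seeing the data, Trim33 had 5 and 8. A reciprocal overlap of 50% lowered the shared share of NKT peaks in TRIM windows to 45.5%. Within 2.5 kb of a tabulated start lay 5 NKT peaks, against 3 within 1 kb. Most of these alternatives admit more or fewer peaks by design. The reciprocal overlap keeps the same peaks and changes only which of them count as shared. Counting any overlap with the window in place of midpoints left the counts of TRIM genes and of distinct peaks unchanged in both lists. Depth is unknown, so a gene without a peak is not shown to lack enrichment.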
